A study of Mus musculus with 6 samples.

Results

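The 10 genes described here carry glucose into the cell and break it down to lactate: Slc2a1, Hk2, Aldoa, Tpi1, Gapdh, Pgk1, Pgam1, Eno1, Pkm and Ldha. They were chosen by name, with earlier results of these data known, and all 10 were present in the single-cell count table of 19449 genes from the spinal cords of mice with experimental autoimmune encephalomyelitis (EAE), the animal model of multiple sclerosis. Together they took 0.520% of all unique molecular identifiers (UMIs, each marking a captured mRNA molecule) in the young day 6 library, 0.784% in the middle-aged day 6 library, 0.590% in the young day 10 library and 0.613% in the middle-aged day 10 library.

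Slc2a1 (GLUT1) is the glucose transporter of the plasma membrane, and hexokinase 2 (Hk2) phosphorylates glucose and so keeps it in the cell. Aldolase A (Aldoa) splits the phosphorylated sugar into triose phosphates, Tpi1 interconverts them, Gapdh oxidizes the product, Pgk1 forms ATP from it, Pgam1 and Eno1 rearrange and dehydrate what is left, and Pkm forms pyruvate and more ATP. Ldha reduces pyruvate to lactate and restores the NAD that Gapdh needs, and activated T cells, neutrophils and inflammatory macrophages are known for relying on this route.

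EAE was induced by adoptive transfer into C57BL/6 mice that were young (8 to 12 weeks) or middle-aged (40 to 44 weeks) of CD4+ T cells. The donors, which carried the CD45.1 allele, had been immunized with a myelin oligodendrocyte glycoprotein peptide, and their cells were restimulated in culture with IL-23 before transfer. CD45+ cells were sorted from spinal cords on day 6 or day 10 after transfer, so that the 4 libraries were young day 6, middle-aged day 6, young day 10 and middle-aged day 10. All recipients carried transferred T cells, no recipient without EAE was sequenced as single cells, and transferred and host T cells cannot be told apart in these counts. Each library was 1 pool of 4 spinal cords, so no group had a replicate, and a difference between 2 libraries has a counting error but no test. In addition, 1 bulk RNA library each came from sorted microglia of naive young and naive middle-aged mice that had received no cells.

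The genes lie on chromosomes 4 (Slc2a1, 119108711 to 119137983, and Eno1, 150236721 to 150248879, both on the plus strand), 6 (on the minus strand Hk2, 82725025 to 82774454, Tpi1, 124810586 to 124814296, and Gapdh, 125161715 to 125166467), 7 (Ldha, 46841475 to 46855627, plus strand), 9 (Pkm, 59656368 to 59679375, plus strand), 19 (Pgam1, 41911923 to 41918660, plus strand) and X (Pgk1, 106187100 to 106203699, plus strand) of GRCm38. Aldoa, on the minus strand of chromosome 7, has 2 gene models side by side in this annotation, 126795234 to 126800751 and 126800790 to 126809108, and the table holds 1 Aldoa value.

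Many genes of this pathway are known targets of the hypoxia-inducible factor HIF-1, whose binding sites share the core ACGTG or GCGTG. Only ACGTG is marked in the sequences below. The 250 bases upstream of the start sites of 6 of the genes are shown. Tpi1, Aldoa and Pgk1 passed 1.5-fold most often between the ages on day 6, Hk2 and Slc2a1 were most often lower on day 10, and Ldha had the largest age ratio of the cluster with the highest levels. Both windows of Ldha and 2 of the 3 of Aldoa are given, the third Aldoa window overlapping the latter of these. All are from RefSeq on GRCm38.p6, written 5′ to 3′ on the gene's own strand, and capitals mark ACGTG or its reverse complement CACGT, with CACGTG holding an overlapping match on each strand.
Ldha, chr7:46845554-46845803, plus strand: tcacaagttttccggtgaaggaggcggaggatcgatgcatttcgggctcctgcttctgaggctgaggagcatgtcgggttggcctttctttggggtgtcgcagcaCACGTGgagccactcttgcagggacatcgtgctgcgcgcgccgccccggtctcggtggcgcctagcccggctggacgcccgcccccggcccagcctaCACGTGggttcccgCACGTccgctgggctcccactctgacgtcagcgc
Ldha, chr7:46846832-46847081, plus strand: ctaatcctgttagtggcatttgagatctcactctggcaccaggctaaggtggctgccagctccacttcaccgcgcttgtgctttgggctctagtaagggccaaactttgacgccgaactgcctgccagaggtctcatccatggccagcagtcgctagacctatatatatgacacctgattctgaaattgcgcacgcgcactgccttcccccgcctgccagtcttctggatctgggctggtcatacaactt
Aldoa, chr7:126800448-126800697, minus strand: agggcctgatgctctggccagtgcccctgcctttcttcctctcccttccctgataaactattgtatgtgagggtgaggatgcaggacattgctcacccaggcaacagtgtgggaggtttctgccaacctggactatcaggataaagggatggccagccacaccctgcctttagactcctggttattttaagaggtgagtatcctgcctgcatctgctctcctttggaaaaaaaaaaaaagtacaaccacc
Aldoa, chr7:126799255-126799504, minus strand: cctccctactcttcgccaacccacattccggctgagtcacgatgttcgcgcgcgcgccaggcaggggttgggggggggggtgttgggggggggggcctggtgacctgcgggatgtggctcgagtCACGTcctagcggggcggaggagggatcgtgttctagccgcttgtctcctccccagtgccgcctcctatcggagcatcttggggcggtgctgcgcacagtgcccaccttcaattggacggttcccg
Pgk1, chrX:106186850-106187099, plus strand: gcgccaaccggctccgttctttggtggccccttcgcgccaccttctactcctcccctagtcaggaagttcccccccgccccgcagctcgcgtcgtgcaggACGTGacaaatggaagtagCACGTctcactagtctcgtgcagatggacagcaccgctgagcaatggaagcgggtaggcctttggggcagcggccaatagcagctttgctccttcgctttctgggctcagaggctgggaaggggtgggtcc
Hk2, chr6:82774455-82774704, minus strand: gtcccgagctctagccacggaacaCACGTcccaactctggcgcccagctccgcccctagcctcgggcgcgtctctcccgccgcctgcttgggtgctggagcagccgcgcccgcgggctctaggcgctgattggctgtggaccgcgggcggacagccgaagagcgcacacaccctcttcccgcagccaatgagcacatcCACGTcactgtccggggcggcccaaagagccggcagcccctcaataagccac
Slc2a1, chr4:119108495-119108744, plus strand: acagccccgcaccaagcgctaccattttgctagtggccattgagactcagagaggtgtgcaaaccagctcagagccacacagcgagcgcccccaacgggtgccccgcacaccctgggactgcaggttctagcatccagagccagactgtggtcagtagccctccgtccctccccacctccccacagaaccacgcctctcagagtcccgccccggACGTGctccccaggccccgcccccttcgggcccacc
Tpi1, chr6:124814159-124814408, minus strand: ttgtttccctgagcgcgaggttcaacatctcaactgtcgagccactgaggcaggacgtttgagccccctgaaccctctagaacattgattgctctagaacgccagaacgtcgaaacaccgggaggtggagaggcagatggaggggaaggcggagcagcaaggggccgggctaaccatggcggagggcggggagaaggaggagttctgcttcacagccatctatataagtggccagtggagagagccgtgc
The first Ldha window held 5 matches of ACGTG and the other 0, and the first Aldoa window held 0 and the other 1. Those of Pgk1 and Hk2 held 2 each, that of Slc2a1 held 1, and that of Tpi1 held 0. In all, 16 windows of the 10 genes were in the table, and 8 of them, from 7 genes, held the letters ACGTG on either strand, against 5444 of 32851 windows of all genes (16.6%). By gene, 4998 of 27025 held it. The 2 Aldoa windows with a match overlap and hold the same 1, so it was counted in both. The windows of Eno1 and Gapdh, like that of Tpi1, held no ACGTG. The other core, GCGTG, occurred in 7 of the 16 windows, against 9250 of 32851 windows of all genes (28.2%). The Eno1 windows held 1, 2 and 2 of it, the Gapdh window 2 and the Tpi1 window 0. The last 2 Eno1 windows overlap and hold the same matches. These are matches of letters only; binding was not measured.

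The 4 libraries held 8315 to 10026 cells and 57337626 to 69859331 UMIs, with a median of 4704.5 to 6196 UMIs per cell, and 154 of 37903 distinct cell barcodes occurred in more than 1 library. The authors' 16 clusters were used as deposited, and 11 of them had at least 50 cells in every library. Against marker genes, clusters 0 and 3 were neutrophil-like, 1 and 5 monocyte/macrophage-like, 2 T cell-like, 4 B cell-like, 7 dendritic cell-like, 9 NK-like and 10 microglia-like. In cluster 10 the defining microglia genes Tmem119 and P2ry12 stood at 413.1 and 267.1 CPM (UMIs of a gene per 1000000 UMIs of all genes in the same cells), against 182.0 and 85.2 in cluster 8. Cluster 8 was left unnamed, although microglia markers were its best match (median log2 ratio 2.59). Its cells were shallow (down to 0.332 of the library's median depth) and no microglia marker was among its 10 leading genes. Statements on microglia-like cells here cover cluster 10 only. Cluster 11, led by basophil granule genes and by division genes, was also left unnamed. It also held T cell markers, at a sum of 2720 to 4187 CPM over the libraries, against 5472 to 5998 CPM in the T cell-like cluster. The name of cluster 0 rests on modest enrichment (median log2 ratio of neutrophil markers 1.05) with no marker among its 10 leading genes. Its cells were shallow as well (down to 0.380 of the median depth), so the naming of clusters 0 and 8 did not follow 1 rule. Cluster 3 was shallower still (down to 0.349), with a median log2 ratio of neutrophil markers of 3.17. Enrichment was also modest in cluster 5 (0.999 for monocyte/macrophage markers), with 1 marker among its 10 leading genes. Neutrophil markers there summed to 6760 to 17635 CPM over the libraries.

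The monocyte/macrophage-like cluster 1 held the highest glycolysis mRNA, and the B cell-like cluster the lowest. Levels are CPM of the UMIs summed over the cells of a cluster in a library. The 10 genes together made up 7936, 11649, 9504 and 8828 CPM in cluster 1 of the young day 6, middle-aged day 6, young day 10 and middle-aged day 10 libraries, and 1132, 1159, 1257 and 1430 CPM in the B cell-like cluster, so that the 2 clusters did not overlap. The unnamed clusters 8 and 11 came next, at 6301 ± 752 and 5267 ± 929 CPM (mean ± SD over the 4 libraries, which differ in age and day). The other clusters stood at 4798 ± 1005 (monocyte/macrophage-like cluster 5), 4772 ± 898 (neutrophil-like cluster 0), 4373 ± 882 (T cell-like), 4075 ± 546 (microglia-like), 4065 ± 655 (dendritic cell-like), 3001 ± 340 (neutrophil-like cluster 3) and 2048 ± 377 CPM (NK-like). The ranges of clusters 0, 2, 5, 7 and 10 overlapped one another. The clusters were made from the same cells and all genes, so these levels are a description.

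**Figure D1:**
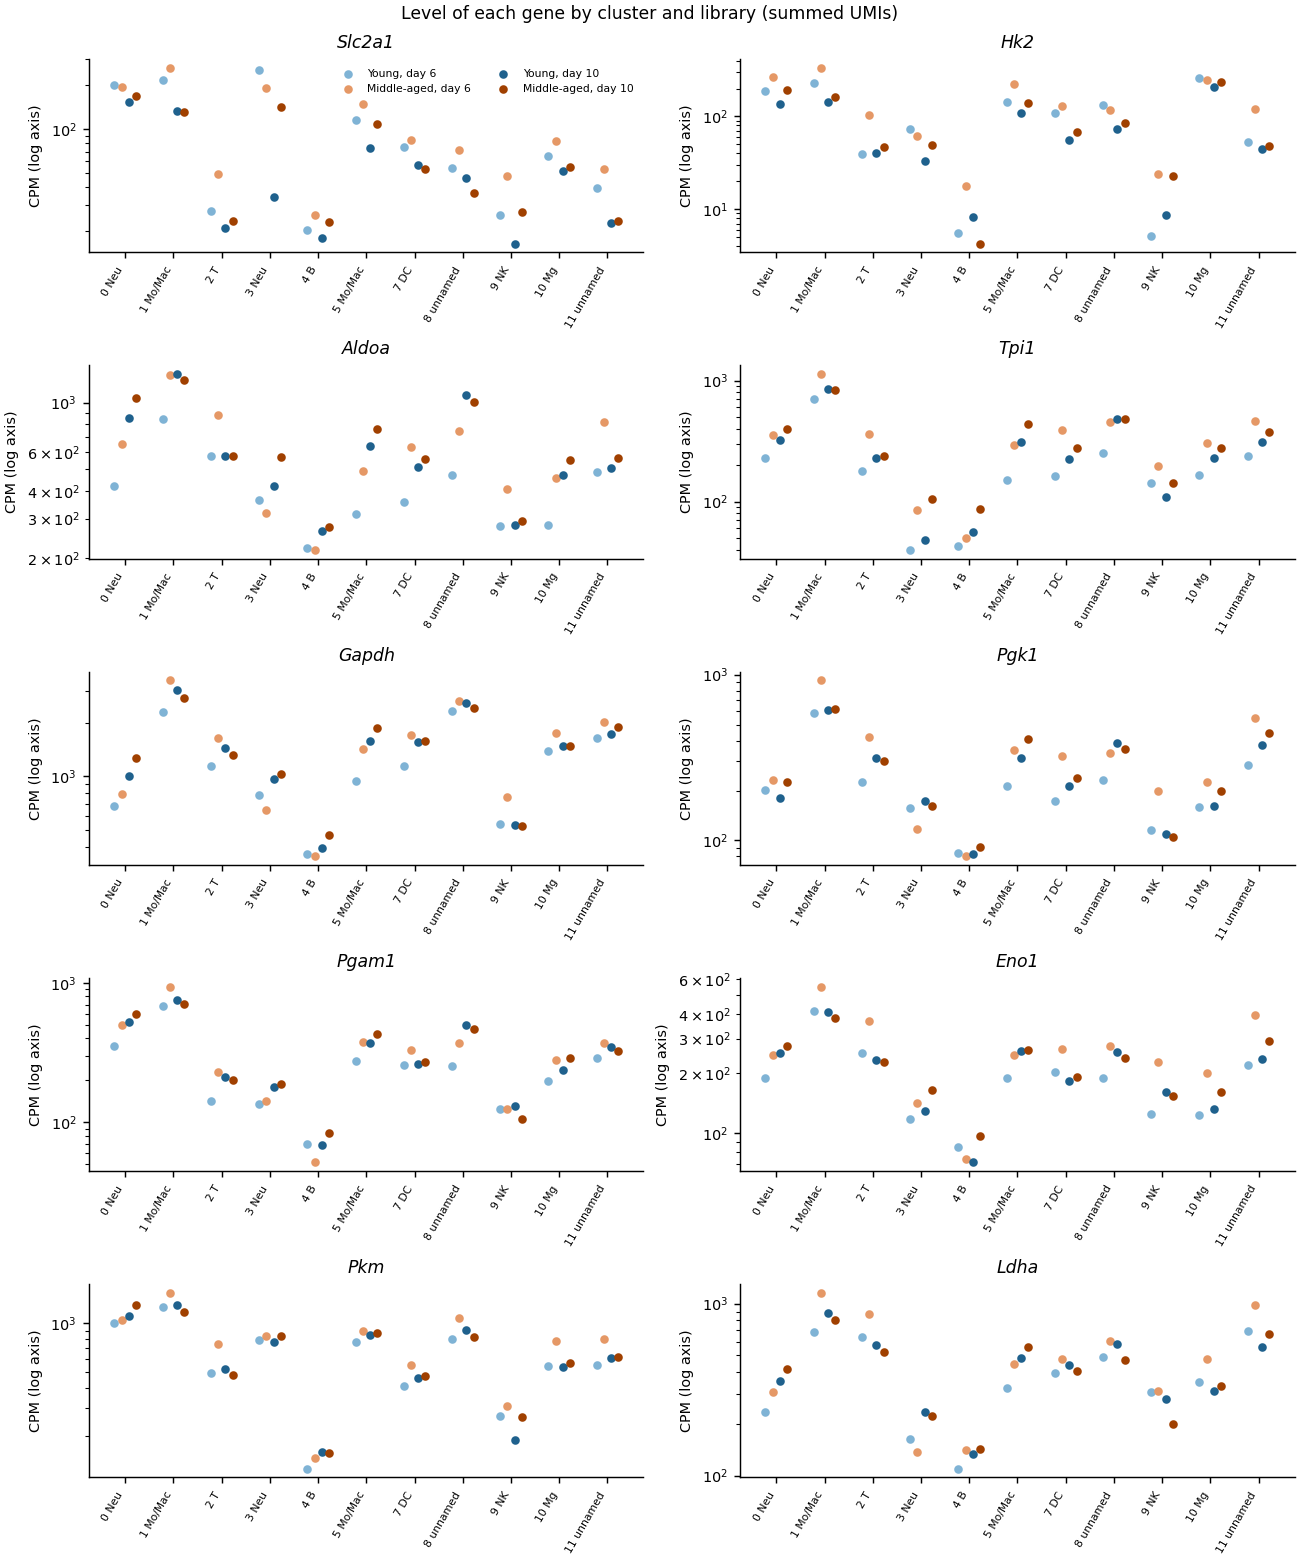
Level of each of the 10 genes (CPM of summed UMIs, log axis, a different range in each panel) in the 11 clusters, with 1 point per library. Neu stands for neutrophil-like, Mo/Mac for monocyte/macrophage-like, T, B and NK for T cell-, B cell- and NK-like, DC for dendritic cell-like and Mg for microglia-like. Cluster 1 is at the top for most genes, whereas Hk2 has its highest mean in the microglia-like cluster.

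By gene, cluster 1 had the highest mean level of 9 of the 10 and cluster 4 the lowest mean of all 10. For Tpi1, Pgk1 and Pgam1 the range of cluster 1 lay above that of the cluster next in order. Tpi1, for example, measured 698, 1132, 859 and 835 CPM in cluster 1 in the library order given above, and 253 to 484 CPM in cluster 8. For Gapdh, cluster 1 (2892 ± 498 CPM) and cluster 8 (2500 ± 143 CPM) overlapped. The exception was Hk2, which measured 262, 245, 206 and 237 CPM in the microglia-like cluster and 232, 335, 144 and 161 CPM in cluster 1. Its mean was highest in microglia-like cells, but its ranges in the microglia-like cluster and cluster 1 overlapped.

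The genes that bring glucose in and trap it did not have the same partners in every cell type. Beside Hk2, cells can use Hk1, the housekeeping hexokinase, and Hk3, the myeloid form. Hk2 made up 67.8% of hexokinase UMIs in the microglia-like cluster (mean over the 4 libraries, range 59.1 to 77.0%), where Hk1 made up 4.21%. The split in T cell-like cells was 48.6% Hk1 and 49.1% Hk2, with Hk3 at 2.36%, and in B cell-like and NK-like cells Hk1 led with 63.0% and 61.4%. Hk3 led in the neutrophil-like cluster 3 with 50.9%, but not in the neutrophil-like cluster 0, where it made up 36.0% and Hk2 46.1%.

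Among glucose transporters, Slc2a1 made up 81.7% of the UMIs of its family in cluster 1 and 66.0% in cluster 0. Slc2a3 (GLUT3), the high-affinity transporter of neurons and lymphocytes, led in T cell-like cells with 57.7% and in the neutrophil-like cluster 3 with 48.8%. Slc2a5, the fructose transporter known as a microglia gene, was found mainly in the microglia-like cluster (18.4%) and in cluster 8 (11.6%), and at no more than 0.862% in clusters 0 to 4. Of the lactate dehydrogenases, Ldhb, whose enzyme favors the conversion of lactate to pyruvate, took 39.7% of the UMIs of its family in the microglia-like cluster and 32.1% in cluster 8. It measured 150, 182, 362 and 303 CPM in microglia-like cells, against 3.64 to 6.78 CPM in T cell-like cells. Ldhb was among the 10 genes that set cluster 8 apart, so its level there is part of what defined the cluster.

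**Figure D2:**
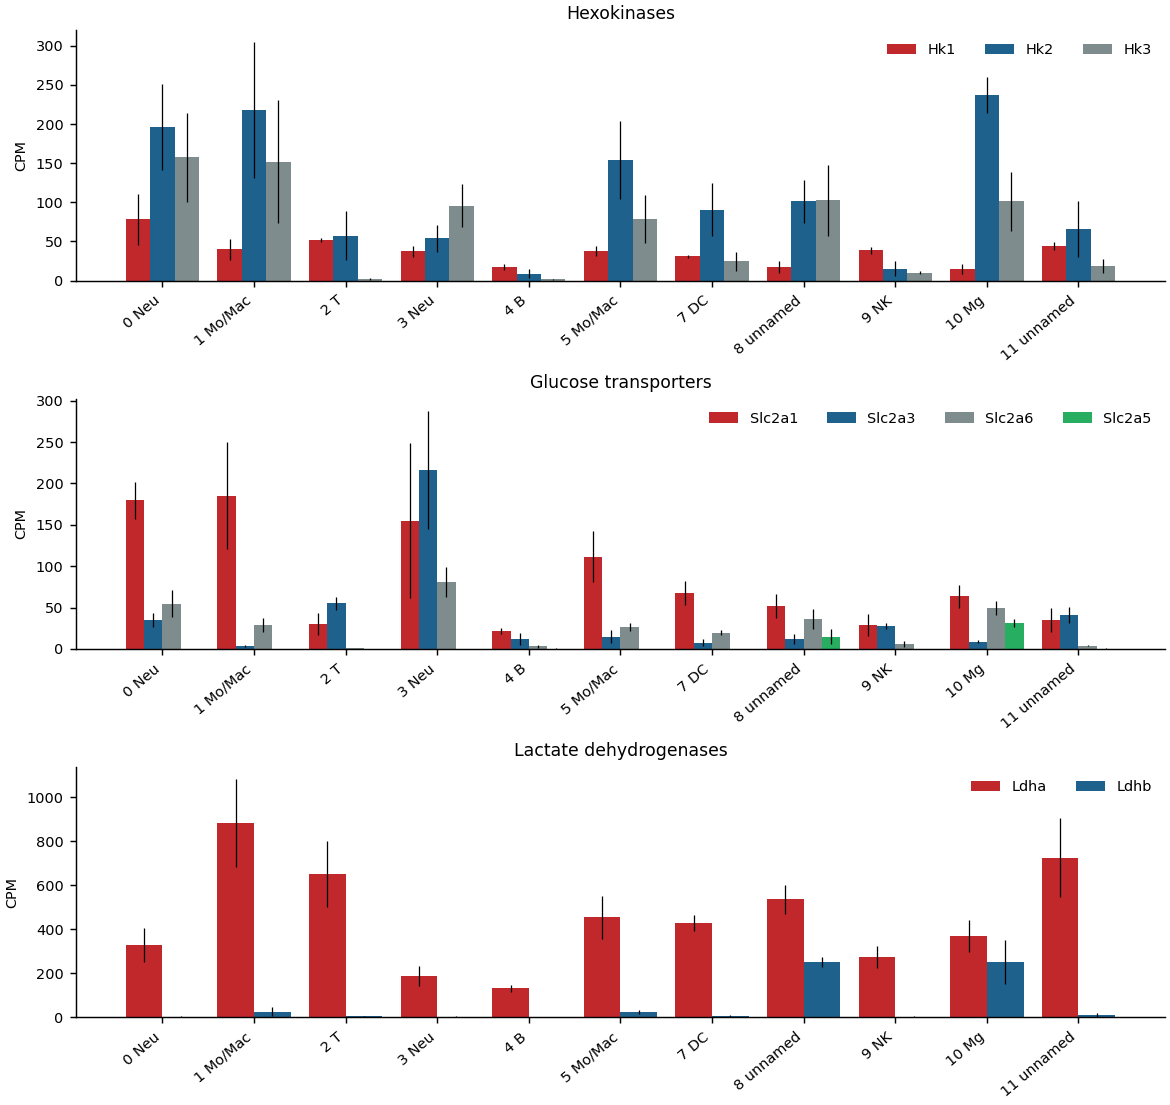
Mean level (CPM, bars; error bars, SD over the 4 libraries) of the hexokinases, the glucose transporters and the lactate dehydrogenases in the 11 clusters, named as in the plot of levels. Hk2 leads in the microglia-like cluster at 237 ± 23.1 CPM, Slc2a3 in the neutrophil-like cluster 3 at 217 ± 71.4 CPM, and Ldhb is high in clusters 8 and 10.

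Comparison of middle-aged with young recipients on day 6 showed higher levels of most of the 10 genes in most clusters. A gene was counted in a cluster when it had at least 100 UMIs in both libraries together, which left 102 of 110 gene-cluster pairs. Of these, 90 were higher in the middle-aged library, where 29.3 to 47.2% of all genes counted were higher, depending on the cluster. At least 1.5-fold higher were 34 (33.3%), whereas 0 were at least 1.5-fold lower. Over all genes counted in the same clusters, 4.77% passed 1.5-fold upward and 7.46% downward. The 95% counting interval of the ratio lay above 0 on the log2 scale for 79 pairs and below 0 for 2, both in the neutrophil-like cluster 3. These intervals hold counting error only and no spread between mice, and the share of all genes with an interval away from 0 was not counted.

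The size of the difference followed the gene as well as the cluster. Tpi1 was at least 1.5-fold higher in 8 of the 9 clusters where it was counted, with a median log2 ratio of 0.88. Aldoa was so in 8 of 11 clusters and Pgk1 in 6 of 11. At the other end, Pkm, Ldha, Pgam1 and Slc2a1 passed 1.5-fold in 1 cluster each, Gapdh in 2, and Eno1 and Hk2 in 3. For Pkm the median log2 ratio over 11 clusters was 0.28.

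Of the 10 genes, 7 in T cell-like cells were at least 1.5-fold higher in the middle-aged day 6 library (3.88% of all genes in that cluster). Hk2 measured 39.1 CPM in the young and 104 CPM in the middle-aged library, a log2 ratio of 1.41 with a 95% counting interval of 1.20 to 1.61. Tpi1 measured 179 and 364 CPM (log2 ratio 1.03, 0.93 to 1.13). Pgk1, at 226 and 423 CPM, differed by 0.90 (0.82 to 0.99), and Slc2a1, at 27.5 and 49.2 CPM, by 0.84 (0.58 to 1.10). Gapdh and Ldha had the smallest ratios of the 10, at 0.51 and 0.43. The median of the 10 genes was 0.65, and that of all genes counted in the cluster was -0.07.

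In the monocyte/macrophage-like cluster 1, 5 of the 10 genes were at least 1.5-fold higher (3.95% of all genes), and all 10 intervals lay above 0. Ldha measured 685 CPM in the young and 1157 CPM in the middle-aged library (log2 ratio 0.76, 0.73 to 0.78). The other 4 were Tpi1 at 698 and 1132 CPM (0.70), Aldoa at 848 and 1336 CPM (0.66), Pgk1 at 589 and 924 CPM (0.65) and Gapdh at 2293 and 3466 CPM (0.60). Slc2a1, Pkm and Eno1 differed least here, by 0.28, 0.28 and 0.40. In cluster 5 of the same class, 5 genes also passed (4.3% of all genes), led by Tpi1 at 151 and 293 CPM (0.96, 0.85 to 1.06).

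Tpi1 also led in dendritic cell-like and microglia-like cells. It measured 163 CPM in the young and 392 CPM in the middle-aged library in dendritic cell-like cells, a log2 ratio of 1.27 (1.15 to 1.39), and Pgk1 and Aldoa also passed 1.5-fold (3 of 10 genes, against 7.89% of all genes). In microglia-like cells, Tpi1 measured 165 and 304 CPM (0.88, 0.72 to 1.04), Aldoa 280 and 456 CPM (0.70) and Eno1 124 and 201 CPM (0.70), which were the 3 of 10 that passed (5.56% of all genes). Hk2, the member with its highest mean level in microglia-like cells, did not differ beyond counting error there (262 and 245 CPM, -0.10, -0.25 to 0.06).

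The exceptions were B cell-like cells and the neutrophil-like cluster 3. In B cell-like cells, 0 of 6 counted genes passed 1.5-fold upward (1.64% of all genes), with a median of -0.04, and no interval lay away from 0. The median of all genes counted there was -0.18, and 5 of the 6 lay above it. In cluster 3, 0 of 8 passed (8.01% of all genes) and the median was -0.22, with Gapdh lower in the middle-aged library (786 and 644 CPM, -0.29, -0.49 to -0.09) and Slc2a1 lower as well (256 and 190 CPM, -0.43, -0.79 to -0.07). The neutrophil-like cluster 0 had a median of 0.38, and its 2 genes past 1.5-fold (2.49% of all genes) were Aldoa and Tpi1, both at 0.63. Cluster 11, with 71 middle-aged cells on day 6, had 5 of 10 past 1.5-fold (4.75% of all genes), Hk2 at 1.16 (0.71 to 1.62) in front. This Hk2 value rested on 66 UMIs in the young and 116 in the middle-aged library, of which 10 cells gave 66.7% and 56.0%. The marker mix of cluster 11 also differed between the day 6 libraries. Basophil markers summed to 203 CPM in the young and 944 CPM in the middle-aged library. Monocyte/macrophage markers were 7707 and 3941 CPM, and T cell markers 2720 and 3236 CPM. Their part in the ratios of cluster 11 was not tested.

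**Figure D3:**
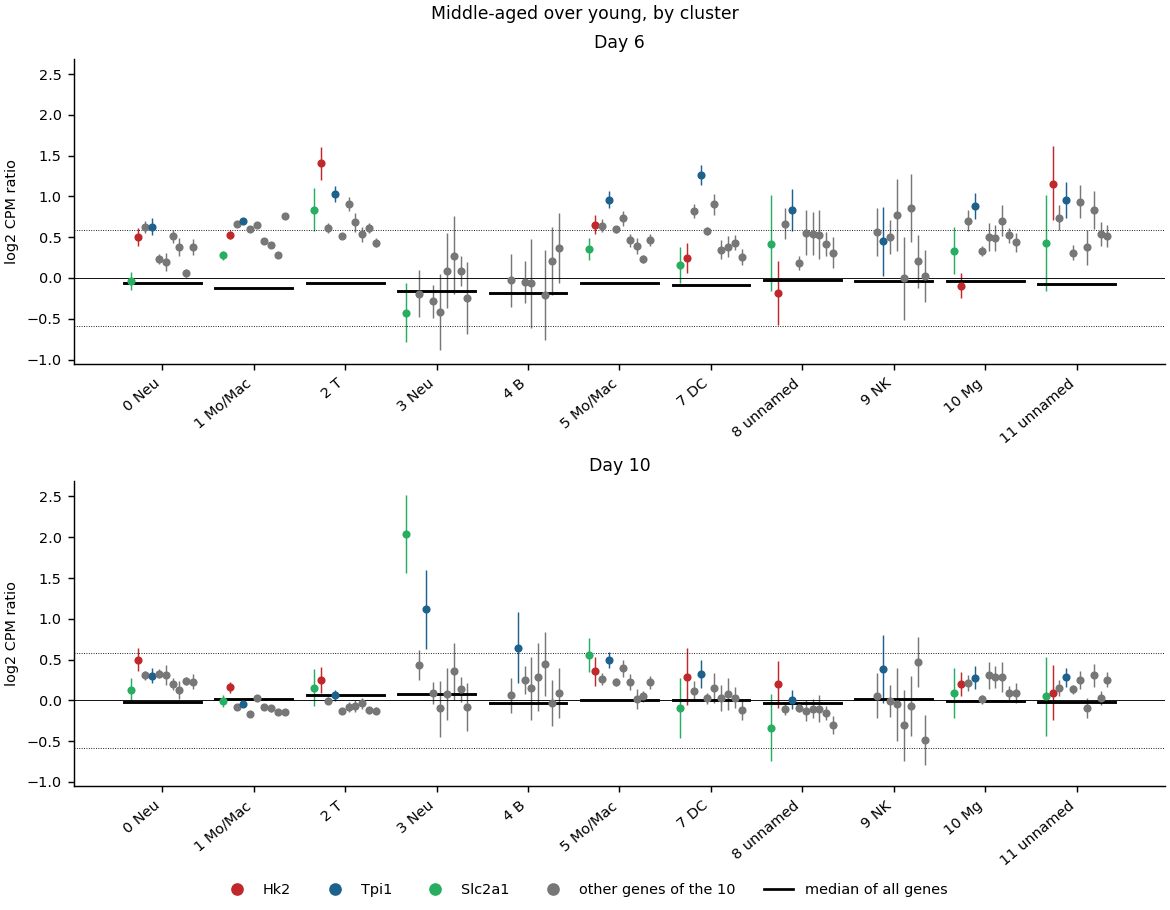
Log2 ratio of CPM, middle-aged over young, for each of the 10 genes with at least 100 UMIs, by cluster, on day 6 and on day 10; bars are 95% counting intervals, the black lines are medians of all genes and the dotted lines mark 1.5-fold. On day 6 most points lie above the medians in every cluster but cluster 3, and on day 10 most lie near 0.

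By day 10 few of these differences were seen. Of 105 pairs counted, 3 passed 1.5-fold upward in the middle-aged library and 0 downward, against 2.73% and 2.89% of all genes, so that the share of members was near that of all genes. In all, 71 of the 105 pairs were above 0, and by cluster 44.4 to 62.8% of all genes counted were. The interval lay above 0 for 41 pairs and below 0 for 16, and this was not counted for all genes. The 3 pairs were Slc2a1 and Tpi1 in the neutrophil-like cluster 3 and Tpi1 in B cell-like cells, and in cluster 3 16.9% of all genes were as far apart upward. Slc2a1 in cluster 3 rested on 74 UMIs in the young and 78 in the middle-aged library (34.3 and 141 CPM, log2 ratio 2.04, 1.56 to 2.51), and 10 cells gave 25.7% of these UMIs in the young and 35.9% in the middle-aged library.

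On day 10 the median of the 10 genes in T cell-like cells was -0.05, and in cluster 1 it was -0.09, where 7 of the 10 intervals lay below 0. Ldha in cluster 1 measured 884 CPM in the young and 804 CPM in the middle-aged library (-0.14, -0.17 to -0.11). Neutrophil-like cluster 0 and monocyte/macrophage-like cluster 5 kept medians above 0, at 0.27 and 0.25. In cluster 5, Slc2a1 (73.8 and 108 CPM, 0.56, 0.35 to 0.77) and Tpi1 (311 and 438 CPM, 0.49, 0.39 to 0.60) stood highest, and in microglia-like cells the median was 0.21. Neutrophil markers also differed between the young and middle-aged day 10 libraries. They summed to 5870 and 2275 CPM in cluster 1, 17635 and 7210 CPM in cluster 5, and 598 and 220 CPM in T cell-like cells. In NK-like cells they were 1280 and 2456 CPM. Leaving out cells with UMIs of another lineage kept 729 of 2166 young and 1690 of 2336 middle-aged cells of cluster 1. The part of this RNA in the day 10 ratios was not tested. With 1 library per age and day, whether the age difference changed between days cannot be tested.

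A fit of age and day together, with edgeR's quasi-likelihood test on the summed counts of the 4 libraries, leaves 1 residual degree of freedom. For age, 0 of 109 gene-cluster pairs passed an adjusted p of 0.05 in either direction, and 0 did with DESeq2, against 0.219% (higher) and 0.113% (lower) of all genes with edgeR. At an unadjusted p under 0.05 there were 37 pairs with edgeR (6.2% of all genes) and 19 with DESeq2 (1.39%). Of the 109 fitted age effects 104 were above 0, while the median of all genes lay between -0.007 and 0.019, depending on the cluster. The 109 pairs come from the same 4 libraries and are not separate observations. The lowest adjusted p in the edgeR test was 0.058, for Tpi1 in the monocyte/macrophage-like cluster 5, which measured 151 and 293 CPM on day 6 and 311 and 438 CPM on day 10 (fitted log2 difference 0.76). It was 0.135 for Tpi1 in dendritic cell-like cells (0.83) and 0.892 for Hk2 in T cell-like cells (0.81). With edgeR's RLE scaling Tpi1 in cluster 5 passed (0.237% of all genes were called higher), and with no filter on low counts 10 pairs were called higher (0.506%).

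Between day 6 and day 10 the transporter and the hexokinase were lower in nearly all counted clusters at both ages. The later enzymes were higher in most clusters in young mice and, except for Aldoa and Pgam1, lower in most clusters in middle-aged mice. Slc2a1 was lower on day 10 in all 9 counted clusters at either age, and Hk2 in 8 of 9 clusters in young and 8 of 8 in middle-aged mice. In cluster 1, Slc2a1 measured 216 CPM on day 6 and 132 CPM on day 10 in young mice (log2 ratio -0.71, -0.78 to -0.65). In middle-aged mice it measured 262 and 131 CPM (log2 interval -1.06 to -0.94). Hk2 in cluster 1 measured 232 and 144 CPM in young (-0.68) and 335 and 161 CPM in middle-aged mice (-1.05), so that both genes were lower on day 10 at each age. The day ratios share their libraries with the age ratios above and are not independent of them.

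Aldoa was above 0 in 11 of 11 clusters in young mice and at least 1.5-fold higher in 5, but in middle-aged mice it was above 0 in 6 of 11. Tpi1, Gapdh and Pgam1 were above 0 in 10 of 11 clusters each in young mice, and in 5, 4 and 6 of 11 in middle-aged mice. In middle-aged mice Pkm was below 0 in 8 of 11 clusters, and Gapdh, Pgk1, Eno1 and Ldha in 7 of 11 each. By cluster, 30.3 to 73.5% of all genes counted were above 0 in young and 27.8 to 76.4% in middle-aged mice. In cluster 5 Aldoa measured 315 CPM on day 6 and 636 CPM on day 10 in young mice (1.01, 0.94 to 1.09). Tpi1 measured 151 and 311 CPM there (1.04, 0.93 to 1.16). In cluster 8 Aldoa measured 470 and 1078 CPM (1.20, 1.03 to 1.37). In all, 11 of 106 pairs in young mice were at least 1.5-fold higher and 8 lower on day 10, against 15.4% and 15% of all genes. In middle-aged mice, 8 of 105 were higher and 17 lower, against 18.3% and 11.8%. The 8 lower pairs in young mice were 4 of Slc2a1 and 4 of Hk2.

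In middle-aged mice, all 10 genes had day ratios with intervals below 0 in 4 clusters, the T cell-like cluster, cluster 1, dendritic cell-like cells and cluster 11. In T cell-like cells 7 were at least 1.5-fold lower on day 10, against 8.03% of all genes in that cluster, and in each of the other 3 clusters 2 were. Hk2 measured 104 and 47.3 CPM (-1.13, -1.28 to -0.98), Slc2a1 49.2 and 23.5 CPM (-1.07, -1.29 to -0.85) and Ldha 867 and 524 CPM (-0.73, -0.77 to -0.68). In young T cell-like cells, Hk2 measured 39.1 and 39.9 CPM (0.03, -0.18 to 0.24) and Ldha 641 and 572 CPM (-0.17, -0.22 to -0.11). The middle-aged day 6 library was the highest of the 4 for all 10 genes in T cell-like cells, in dendritic cell-like cells and in cluster 11. In cluster 11 of middle-aged mice, basophil markers summed to 944 CPM on day 6 and 229 CPM on day 10. T cell markers there were 3236 and 4187 CPM, and the part of this mix was not tested.

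**Figure D4:**
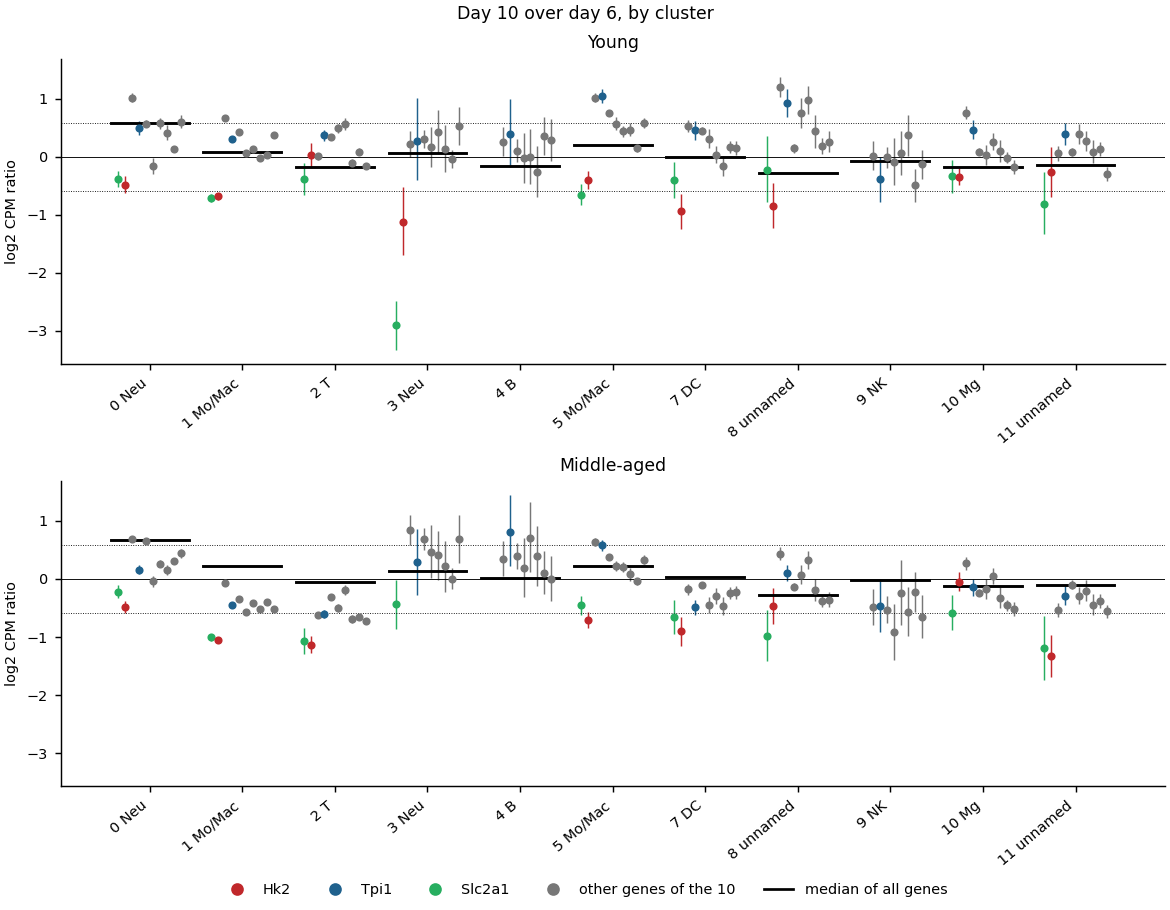
Log2 ratio of CPM, day 10 over day 6, for the 10 genes with at least 100 UMIs in young and in middle-aged mice, by cluster; bars are 95% counting intervals, the black lines are medians of all genes and the dotted lines mark 1.5-fold. Slc2a1 (green) and Hk2 (red) lie below the medians of all genes in most clusters at both ages, down to -2.90 for Slc2a1 in the neutrophil-like cluster 3 of young mice.

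In the edgeR fit, the day effect passed for 19 of 109 pairs. Lower on day 10 were 13 (8.72% of all genes) and higher were 6 (7.34% of all genes), and DESeq2 called 11 lower (5.18%) and 1 higher (2.27%). Hk2 was lower in cluster 0 (fitted log2 difference -1.24, adjusted p = 1.1e-06, edgeR), cluster 1 (-1.04, 0.0025), cluster 5 (-0.84, 0.0020) and dendritic cell-like cells (-0.99, 0.0041). Slc2a1 was lower in cluster 0 (-1.06, adjusted p = 5.9e-06, edgeR), cluster 1 (-1.03, 0.0023), cluster 3 (-1.91, 0.011) and cluster 5 (-0.84, 0.0019). Of the 19 calls, 4 passed under all 8 alternatives: Hk2, Slc2a1 and Pgk1 in cluster 0 and Aldoa in cluster 8. Each alternative kept TMM, RLE or DESeq2 scaling, so none of them could test the choice of scale. By CPM, 0 of the 10 genes in cluster 0 were at least 1.5-fold lower on day 10. The lowest of their log2 day ratios was -0.48 (young) and -0.49 (middle-aged). Pgk1 in cluster 0 stayed between 181 and 231 CPM over the 4 libraries, beside a fitted log2 difference of -0.86. The call of Hk2 in dendritic cell-like cells missed the threshold with DESeq2 (adjusted p = 0.056), and that of Slc2a1 in cluster 3 with RLE factors (0.058) and without either day 6 library (0.319 and 0.321). Over the alternatives, the adjusted p reached 0.510 for Hk2 in dendritic cell-like cells, 0.143 for Hk2 and 0.094 for Slc2a1 in cluster 1, and 0.236 and 0.225 in cluster 5, each without one of the day 10 libraries. Neither passed in T cell-like cells (adjusted p = 0.069 for Slc2a1 and 0.323 for Hk2, edgeR), and in microglia-like cells Hk2 had a fitted difference of -0.04 (adjusted p = 0.935).

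The 6 pairs that rose were Aldoa and Tpi1 in cluster 5 and Aldoa, Tpi1, Pgk1 and Pgam1 in cluster 8, the largest being Aldoa in cluster 8 (fitted log2 difference 1.09, adjusted p = 0.000298, edgeR). Marker sums of these clusters also differed between day 6 and day 10. In cluster 8 monocyte/macrophage markers went from 1928 to 16641 CPM (young) and from 2583 to 19010 CPM (middle-aged). Microglia markers there went from 6193 to 2679 and from 4015 to 3248 CPM. In cluster 5 neutrophil markers were 7858 and 17635 CPM in young and 6760 and 7210 CPM in middle-aged mice. Their part in the day differences was not tested. The remaining 5 of the lower pairs, Tpi1, Pgk1, Pgam1, Eno1 and Pkm, were all in the neutrophil-like cluster 0. There the scale matters: the median of all genes in cluster 0 was higher on day 10 by 0.58 (young) and 0.68 (middle-aged) on the CPM log2 scale, 27.3% of all genes were called lower and 27.2% higher, and on the TMM scale of the fit these genes fell, while on the CPM scale Tpi1 was higher on day 10 in young (0.49) and middle-aged mice (0.16). Leaving out the young day 6 library gave 33 lower and 2 higher pairs (9.38% and 7.6% of all genes), and leaving out the middle-aged day 6 library gave 7 lower and 23 higher (9.75% and 8.66%), so the division between lower and higher rested on which day 6 library was in the fit.

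In single cells thinned to 2000 UMIs each, the difference between the day 6 libraries in cluster 1 was seen at the 10th percentile as well as at the median. The median cell of cluster 1 held 15 UMIs of the 10 genes in the young and 23 in the middle-aged day 6 library, 18 and 17 in the young and middle-aged day 10 libraries, and the 10th percentile was 6 and 11 on day 6. The medians of the unthinned cells were 7485, 11758, 9367 and 8685 CPM in the same order. The T cell-like median was 5 and 8 UMIs on day 6 and 7 and 6 on day 10. In microglia-like cells it was 6 and 8 UMIs on day 6 and 6 in both day 10 libraries. B cell-like cells had a median of 2 UMIs in every library. Thinning left out 20 to 29 cells per day 6 library in cluster 1, but 459 and 1442 in the shallow cluster 0.

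**Figure D5:**
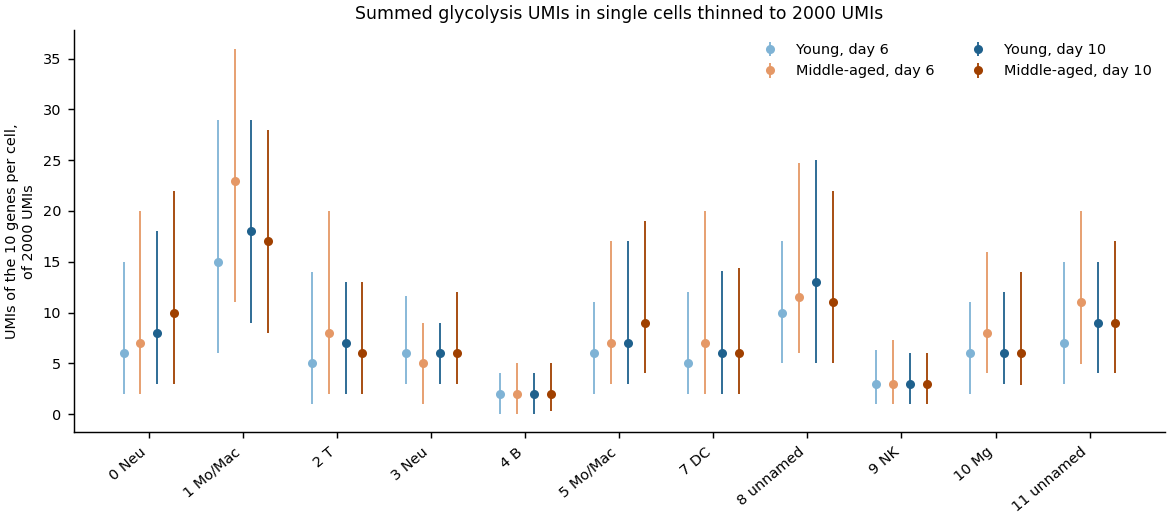
UMIs of the 10 genes per cell after thinning each cell to 2000 UMIs (dots, median; lines, 10th to 90th percentile), by cluster and library. In cluster 1 the median is 15 in the young and 23 in the middle-aged day 6 library, and in B cell-like cells it is 2 in all 4 libraries.

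Other genes of glucose metabolism were compared as lists on day 6. Of 34 further glycolysis and lactate genes, 16 of 161 counted gene-cluster pairs were at least 1.5-fold higher in middle-aged mice (9.94%) and 7 lower (4.35%). Higher were 33.3% of pairs of the 10 genes and 4.77% of all genes, and 7.46% of all genes were lower. In cluster 1 the list had 4 higher and 1 lower of 27 counted (3.95% and 8.71% of all genes). Among them was Gpi1, which converts the hexose phosphate upstream of aldolase, at 312 and 497 CPM (0.67, 0.63 to 0.71). Slc2a3 was lower there (4.98 and 1.83 CPM, -1.45). In T cell-like cells 2 of 19 were higher (3.88% of all genes). These were Slc16a3, the lactate exporter MCT4 (22.6 and 50.6 CPM, 1.16), and the galactokinase Galk1 (15.8 and 37.0 CPM, 1.23). The pentose phosphate pathway, which branches off glycolysis to make NADPH, and the TCA cycle, which burns its pyruvate in mitochondria, each had 0 pairs at least 1.5-fold higher (of 58 and 136) and 5 lower. The lower pairs made up 8.62% and 3.68%, against 7.46% of all genes, and 4.77% of all genes were higher.

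A list of 23 genes known to be induced by hypoxia but not part of glycolysis was shifted the same way on day 6. So was a list of 12 cell division genes, with 14 of 51 counted pairs at least 1.5-fold higher in middle-aged mice (27.5%) and 1 lower. Of 130 counted pairs of the hypoxia list, 46 were at least 1.5-fold higher (35.4%) and 4 lower, against 4.77% and 7.46% of all genes. In cluster 1, 10 of 19 genes of the hypoxia list were higher (3.95% of all genes). Hilpda, a lipid droplet protein, measured 56.8 CPM there in the young and 238 CPM in the middle-aged library (2.07, 1.98 to 2.16), and the prolyl hydroxylase Egln3 18.9 and 51.9 CPM (1.46). In T cell-like cells 6 of 17 were higher (3.88% of all genes), led by Ndrg1 (8.05 and 29.9 CPM, 1.89, 1.46 to 2.34) and by Bnip3, a mitophagy receptor (8.19 and 19.7 CPM, 1.26). On day 10, 20 of 145 pairs of the hypoxia list were at least 1.5-fold higher (13.8%) and 3 lower, against 2.73% and 2.89% of all genes. The higher pairs included 8 of 18 in cluster 5 (3.34% of all genes). The cell division list then had 0 higher and 8 lower of 54. The day 6 and day 10 ratios come from different libraries, but membership of these lists was settled with earlier results known, so their direction is a description.

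Other values differed between the day 6 libraries in the same clusters. Heat shock genes, whose chaperones protect proteins under stress, were lower in middle-aged mice. Of 91 pairs, 0 were at least 1.5-fold higher and 47 lower (51.6%, against 7.46% of all genes). Cells with a UMI of Hspa1a or Hspa1b made up 66.1% of the young and 47.2% of the middle-aged day 6 cells in cluster 1, 87.5% and 46.3% in microglia-like cells, and 21.3% and 14.7% in T cell-like cells. Cells with a UMI of a cell division gene made up 57.6% and 82.4% in microglia-like cells, 41.3% and 45.3% in T cell-like cells and 19.5% and 24.8% in cluster 1. Over all cells, the median day 6 ratio of the 10 genes was 0.56 in cluster 1, 0.65 in T cell-like cells and 0.49 in microglia-like cells. Among cells without an Hspa1a or Hspa1b UMI, a comparison chosen after seeing the data, it was 0.40 in cluster 1 and 0.69 in T cell-like cells. Among cells without a division UMI, chosen likewise, it was 0.57 and 0.54. In microglia-like cells these filtered medians were 0.38 and 0.93, but rested on 54 young and on 38 middle-aged cells. A shallow cell is more likely to hold no UMI of a gene, so both filters also select on depth.

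RNA of other cell types also differed between these libraries. In microglia-like cells the summed neutrophil markers were 4999 CPM in the young and 1760 CPM in the middle-aged day 6 library (8 of 14 counted markers lower), and the microglia markers themselves 10410 and 6423 CPM (6 of 9 lower). In T cell-like cells neutrophil markers were 136 and 326 CPM (4 of 5 counted markers higher) and monocyte/macrophage markers 1429 and 1242 CPM, beside a sum of 3722 and 5668 CPM for the 10 glycolysis genes. In cluster 1 neutrophil markers were 4815 and 3474 CPM (7 of 15 lower). Their part in the age differences was not tested. Without the cells that held UMIs of another lineage, 26 pairs in place of 34 were at least 1.5-fold higher on day 6 and 0 lower.

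Across the 44 sums of 11 clusters and 4 libraries, the 10 genes varied together to a differing degree. Pearson's r between 2 of them on the log2 scale ranged from 0.17 (Slc2a1 with Ldha) to 0.93, with a median of 0.79 over 45 pairs. Against the mean of the 10 standardized genes, Pgam1 stood highest (r = 0.96) and Slc2a1 lowest (r = 0.60). In all, 2723 genes with at least 50 CPM were compared, the 10 genes among them. Outside the 10, the most alike were Ecm1, an extracellular matrix protein (r = 0.855), AA467197 (0.854) and Ero1l, an oxidase of the endoplasmic reticulum (0.839). Next came Lgals3 (galectin-3, 0.836), Ggh (0.834), Cnih4 (0.832), Esd (0.817), Znhit1 (0.813), Bcl2a1b (0.799) and Ube2a (0.797). Sums of 1 library share depth and handling, and sums of 1 cluster share its cells, so these correlations describe the table and carry no p.

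In microglia of naive mice, 9 of the 10 genes lay within 1.5-fold between the ages. The bulk libraries held 79373420 (young) and 76293436 (middle-aged) counts, 1 library per age, so again without a test. The median log2 ratio of the 10 genes, middle-aged over young, was 0.01, with 0 at least 1.5-fold higher and 1 lower, against 4.82% and 9.59% of all genes. Hk2, at 395 and 447 CPM, had a log2 ratio of 0.18 (0.15 to 0.20), Aldoa, at 244 and 258 CPM, 0.08, and Tpi1, at 85.5 and 86.4 CPM, 0.02 (-0.03 to 0.06).

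The gene past 1.5-fold was Slc2a1, with 10806 counts (136 CPM) in the young and 6244 counts (81.8 CPM) in the middle-aged library, a log2 ratio of -0.73 (-0.78 to -0.69). Slc2a1 is also abundant in the endothelium of the blood-brain barrier, a cell type that the sort for CD11b+ cells with intermediate CD45 is meant to remove. The endothelial genes Cldn5 (64.6 and 11.7 CPM, -2.47), Flt1 (117 and 27.6 CPM, -2.09) and Pecam1 (93.3 and 42.1 CPM, -1.15) were lower in the same library, and their part in the Slc2a1 difference was not tested. In a bulk sample, fewer cells of a type and less RNA per cell cannot be told apart. Of the 32 other glycolysis genes counted, 2 were at least 1.5-fold lower (Pfkp, -1.04, and Eno2, -0.72) and 0 higher, against 9.59% and 4.82% of all genes.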

How the data were processed

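CD45+ spinal cord cells were profiled by droplet single-cell RNA-seq in 4 libraries. Per the labels, reads were counted with Cell Ranger 3.1.0 on mm10; the authors kept cells with over 200 genes and under 10% mitochondrial reads and deposited raw UMI counts and cluster numbers. The bulk table also holds counts deposited by the authors, 1 library per age. The 10 genes and all lists were chosen with earlier results of these data known. UMIs were summed by cluster and library, scaled to CPM of all UMIs in that sum, and compared as log2 ratios with exact conditional binomial 95% intervals, which cover counting error only. Called meant at least 1.5-fold with 100 or more UMIs. All 10 genes are given, and other list genes by size of ratio. Summed counts were fitted with edgeR 4.0.16 (TMM, genes with 10 or more counts in 2 or more libraries, age plus day, Benjamini-Hochberg over all genes of a cluster); DESeq2 1.42.0 was an alternative. Scripts were tested on simulated data. Doublets were not called; cells with UMIs of another lineage were left out as an alternative. Near-identical copies (Gapdh, Eno1) may share reads. Gene positions were from GENCODE.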

Additional observations from a re-analysis of the deposited data

Results flagged for a closer look

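In 8 gene-cluster pairs the age ratio was at least 1.5-fold on 1 day and of the opposite sign on the other day; with 1 library per age and day, the difference between days was not tested. In the monocyte/macrophage-like cluster 1, the log2 age ratio of Ldha was 0.76 on day 6 and -0.14 on day 10. The same ratios were 0.70 and -0.042 for Tpi1, 0.66 and -0.088 for Aldoa, and 0.60 and -0.16 for Gapdh. In T cell-like cells they were 0.90 and -0.077 for Pgk1 and 0.61 and -0.12 for Pkm. Aldoa in the unnamed cluster 8 had 0.66 and -0.10. Slc2a1 in the neutrophil-like cluster 3 went the other way, at -0.43 on day 6 and 2.04 on day 10, on 74 and 78 UMIs on day 10.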

How the results depend on the processing

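No paired analysis was possible because the labels give no replicate numbers and each group had 1 library. The 34 pairs at least 1.5-fold higher on day 6 became 26 to 46 over the alternatives, with 0 lower under each. The 3 higher on day 10 became 8 without cells holding UMIs of another lineage, 8 with log-normalized values, 5 at a 20 UMI minimum and, chosen after seeing the data, 5 without dividing cells (then 1 lower) and 6 without cells with Hspa1a or Hspa1b. For the day ratio in young mice, 11 higher became 18 without mitochondrial and ribosomal protein genes in the total, 7 without cells of mixed lineage and 28 with log-normalized values. In middle-aged mice, 8 higher became 4 and 17 lower became 30 with TMM factors, and 4 and 34 with DESeq2 size factors. The age effect called 1 pair with RLE factors (Tpi1, cluster 5, adjusted p = 0.020), 10 without a filter, and 0 to 1 when a library was left out (1 without young day 6: Slc2a1, cluster 3). The day effect called 1 higher with DESeq2, 3 higher and 8 lower without age in the fit, and 2 to 23 higher and 3 to 33 lower when a library was left out (3 higher and 3 lower without young day 10, 4 and 8 without middle-aged day 10); of the 19 calls, 6 to 14 passed in the same direction in these fits, 12 with DESeq2 and 11 without age. Fits without a library held 3 libraries and 1 term, and a lone library was assumed to vary like the others. Signs turned in cluster 0 with TMM and DESeq2 factors for Ldha in young (-0.064 and -0.16) and, in middle-aged mice, Aldoa (-0.071 and -0.19) and Gapdh (-0.10 and -0.22). Without cells of mixed lineage, they turned for Pgk1 in cluster 11 on day 6 (-0.071), and in the middle-aged day ratio for Hk2 in cluster 5 (0.28) and Slc2a1 in cluster 11 (0.22). The causes were not tested. Of the values for single genes and clusters, 602 stayed within their error, 177 moved beyond it and 9 turned. Depth limited B cell-like cells most, where 6 of the 10 genes were counted on day 6, followed by NK-like cells and the neutrophil-like cluster 3 with 8 each.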
